A study of Mus musculus with 6 samples.

Results

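The Hox cluster genes were followed in adult brain RNA-seq of mice that lack Bahd1, a chromatin-associated repressor. Members were the rows of the count table whose gene name is Hoxa, Hoxb, Hoxc or Hoxd followed by a paralog number, which gave 40 rows out of 53801. They carry 39 names, since Hoxd4 stands in the table under 2 identifiers. The samples were 3 Bahd1-WT (Bahd1+/+) and 3 Bahd1-KO (Bahd1-/-) mice of strain C57BL/6, about 70 weeks old and, per the study's methods, male. One hemisphere of each brain, cut sagittally, gave one library of polyadenylated RNA, so a library covers forebrain, midbrain, cerebellum and whatever length of medulla stayed attached. The knockout is constitutive, was bred from heterozygous parents and covers every cell type from conception, and no treatment was given to either group. Each mouse is one sample, and p-values below weigh the difference between genotypes against the spread between mice.

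Hox genes encode homeodomain transcription factors that set position along the body axis of the embryo. Within each cluster the genes lie in the order in which they are switched on: low paralog numbers begin in the hindbrain, middle numbers in the caudal medulla and cervical cord, and high numbers only in the trunk, limbs and tail. The forebrain and midbrain keep the clusters silent through Polycomb complexes, which deposit and read repressive histone marks, and neurons of the adult medulla and pons retain part of their embryonic Hox code. In such bulk RNA, fewer cells of a type and less RNA per cell cannot be told apart.

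In GRCm38 the Hoxa cluster lies on chromosome 6 (52162417 to 52260880, from the start of Hoxa2 to the end of Hoxa13), the Hoxb cluster on chromosome 11 (96194316 to 96368256), the Hoxc cluster on chromosome 15 (102921103 to 103036852) and the Hoxd cluster on chromosome 2 (74668310 to 74765142). The libraries held 42297150 to 93557948 counts assigned to genes. Bahd1 itself, the targeted gene, had 1383, 844 and 1099 counts in the Bahd1-WT libraries and 0, 14 and 1 in the Bahd1-KO libraries. All Hox rows together held 11827 counts, or 11.4 to 42.9 CPM in one library (counts per 1000000 counts of the library, scaled here by the trimmed mean of M-values, TMM). A count of 0 allows up to 3 counts, which is 0.0315 to 0.0690 CPM depending on the library, and that limit covers counting error only.

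In both genotypes the Hox counts lay on the anterior and central genes, with few on the posterior ones. Of 13 rows with paralog numbers 1 to 4, 11 reached 10 counts over the 6 libraries and were tested, as did 10 of 11 with numbers 5 to 8 and 2 of 16 with numbers 9 to 13. By cluster, 7 of 11 Hoxa rows, 8 of 10 Hoxb rows, 3 of 9 Hoxc rows and 5 of 10 Hoxd rows were tested. Per length of exon, Hoxa5 stood highest with a mean of 2.08 CPM per kb over the 6 libraries (0.857 to 2.94). It was followed by Hoxb5 at 1.63 (0.504 to 2.37), Hoxb8 at 1.31 (0.0207 to 2.64), Hoxa4 at 1.20 (0.701 to 1.74) and Hoxc4 at 1.109 (0.733 to 1.52). The ranges of these 5 genes overlapped between mice. Within every library Hoxa5 was above Hoxb8, Hoxa4 and Hoxc4, and it was above Hoxb5 in all but Bahd1-KO replicate 2. The order of the others changed between libraries.

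**Figure D1:**
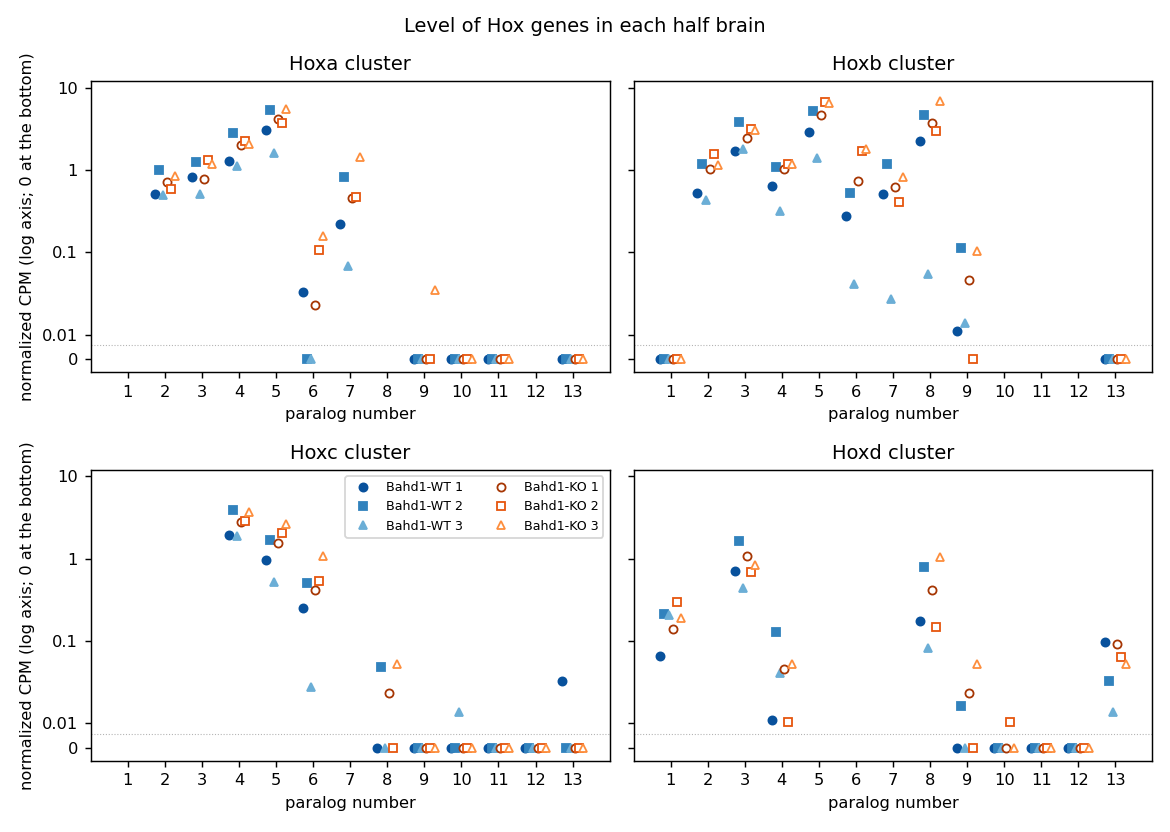
Normalized CPM (log axis, with 0 drawn at the bottom) of the Hox genes reported here against its paralog number, one panel per cluster; filled blue symbols are the 3 Bahd1-WT and open orange symbols the 3 Bahd1-KO libraries. Levels ran up to 6.96 CPM in the central genes, the Bahd1-WT replicate 3 triangles dropped below the other libraries in most genes of paralogs 6 to 8, and 9 of the 16 posterior rows sat at 0 in every library; the empty Hoxd4 identifier is not drawn.

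The posterior genes were at or near 0 in both genotypes. In all, 11 Hox rows had 0 counts in every library: Hoxa10, Hoxa11, Hoxa13, Hoxb1, Hoxb13, Hoxc9, Hoxc11, Hoxc12, Hoxd11, Hoxd12 and one Hoxd4 identifier (ENSMUSG00000101174). For each of them, 0 of 191828217 counts in the Bahd1-KO group allows up to 0.0156 CPM over that group, and 0 of 232283172 in Bahd1-WT allows up to 0.0129 CPM. Of the 2948 exon bases of that Hoxd4 identifier, however, 1542 lie in Hoxd3 or Gm28230 on the same strand. Its 0 is therefore not a limit on Hoxd4 RNA. Another 6 rows, Hoxa9, Hoxc8, Hoxc10, Hoxc13, Hoxd9 and Hoxd10, had at least 1 but fewer than 10 counts in all. Together the 16 posterior rows gave 26 counts in the Bahd1-WT group and 28 in the Bahd1-KO group. That is 0.115 ± 0.0649 CPM against 0.159 ± 0.0842 CPM (SD, n = 3 per group), a difference smaller than either SD.

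Hoxd13, which patterns digits and the genital region, was the posterior gene with the most counts, at 9, 2 and 1 in Bahd1-WT and 4, 6 and 3 in Bahd1-KO. Hoxb9 had 1, 7 and 1 counts in Bahd1-WT and 2, 0 and 6 in Bahd1-KO. The groups overlapped for both genes. Hoxb1, which marks rhombomere 4 in the embryo, was the one anterior name with no count at all. Since Polycomb-silenced promoters are typically rich in CpG dinucleotides, the RefSeq promoter windows (250 bases before to 50 after the gene start) of 22 of the 39 Hox names were examined. They held a median of 14.5 CpG per window of 300 bases against 7 in all 32851 promoters. The 8 windows of the 6 Hox genes at 0 had a median of 14 CpG (4 to 45), and the 9 windows of genes with at least 100 counts a median of 13 (6 to 29), so the ranges of silent and expressed members overlapped. The letters TGATNNAT, searched on both strands as a Pbx-Hox type motif, occurred in 4 of 24 Hox windows (16.7%) and in 8.85% of all promoters.

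Shown here are the 250 bases upstream of the most strongly expressed gene per length (Hoxa5, chr6:52204588-52204837, minus strand), of the gene that differed most between mice (Hoxb8, chr11:96281655-96281904, plus strand) and of a silent posterior gene (Hoxa13, chr6:52260881-52261130, minus strand), from RefSeq on GRCm38.p6. Each is written 5′ to 3′ on the strand of the gene with CpG in capitals, and they hold 28, 12 and 35 CpG.
Hoxa5: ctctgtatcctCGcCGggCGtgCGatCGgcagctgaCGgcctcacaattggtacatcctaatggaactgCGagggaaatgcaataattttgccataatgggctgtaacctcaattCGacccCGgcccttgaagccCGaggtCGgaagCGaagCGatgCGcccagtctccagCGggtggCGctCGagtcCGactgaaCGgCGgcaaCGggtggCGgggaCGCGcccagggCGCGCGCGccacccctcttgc
Hoxb8: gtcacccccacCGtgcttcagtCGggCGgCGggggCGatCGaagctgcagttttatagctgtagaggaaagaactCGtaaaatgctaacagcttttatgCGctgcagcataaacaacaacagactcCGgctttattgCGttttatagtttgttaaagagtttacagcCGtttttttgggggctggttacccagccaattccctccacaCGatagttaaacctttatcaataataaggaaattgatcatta
Hoxa13: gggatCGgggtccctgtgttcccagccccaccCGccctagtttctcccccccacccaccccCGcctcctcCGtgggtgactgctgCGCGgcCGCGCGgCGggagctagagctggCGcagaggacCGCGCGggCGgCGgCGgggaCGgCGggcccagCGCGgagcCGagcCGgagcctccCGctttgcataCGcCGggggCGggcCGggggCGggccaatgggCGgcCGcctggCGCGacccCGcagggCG
The silent Hoxa13 promoter had the most CpG of the 3.

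Before genotypes were compared, one library stood apart within its group. In Bahd1-WT replicate 3, paralogs 6 to 8 made up 2.63% of all Hox counts (22 of 835 counts, Wilson 95% interval 1.75 to 3.96%), against 19.1 to 31.2% in the other 5 libraries. The group of paralogs 6 to 8 was chosen after its values were seen. Relative to the other Bahd1-WT libraries pooled, replicate 3 had 18.8 times less CPM for paralogs 6 to 8 (ratio 0.0531, exact 95% counting interval 0.0331 to 0.0809), and only 1.58 times less for paralogs 1 to 4 (ratio 0.632, interval 0.574 to 0.696). The step fell inside the Hoxb cluster: Hoxb2 to Hoxb5 together were 2.02 times lower in that library, while Hoxb6 to Hoxb8 together were 35.7 times lower. Replicate 3 was the lowest of the 6 libraries in 17 of 23 tested members, in 6 of 7 with paralog numbers 6 to 8, and the highest in 0.

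**Figure D2:**
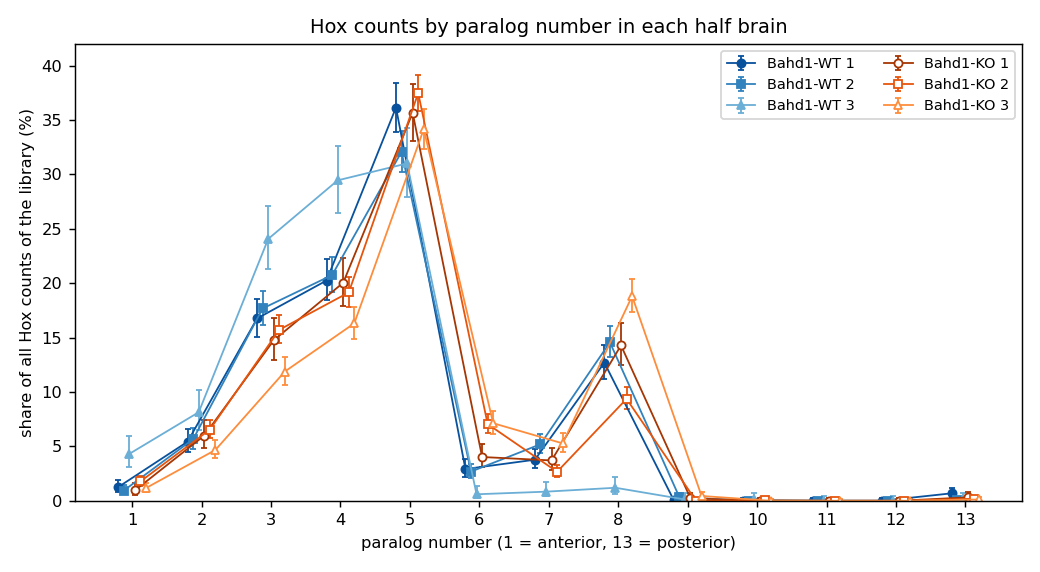
Share of a library's Hox counts (percent) that fell on each paralog number, with Wilson 95% intervals as bars, for the 3 Bahd1-WT (filled) and 3 Bahd1-KO (open) libraries. All libraries peaked at paralog 5, and a second peak at paralog 8, at 9.37 to 18.8% in 5 libraries, was at 1.20% in Bahd1-WT replicate 3. In that replicate the intervals of paralog 5 (31.0%) and paralog 4 (29.5%) overlapped.

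Markers of the pons and medulla did not show such a step. In Bahd1-WT replicate 3, Slc6a5, the neuronal glycine transporter of brainstem and cord, was at 0.874 times the other Bahd1-WT libraries pooled, and Tph2, which makes serotonin in the raphe, was at 1.09 times. Lbx1, of dorsal hindbrain and cord neurons, which was chosen after its values were seen, was at 0.968 times. The 4 tested of 5 Schwann cell markers summed to 68.0, 61.6 and 73.0 CPM in Bahd1-WT and to 57.1 to 66.5 CPM in Bahd1-KO, nearly all of it Drp2. The part that the caudal extent of the dissected tissue plays in these Hox levels was not tested.

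**Figure D3:**
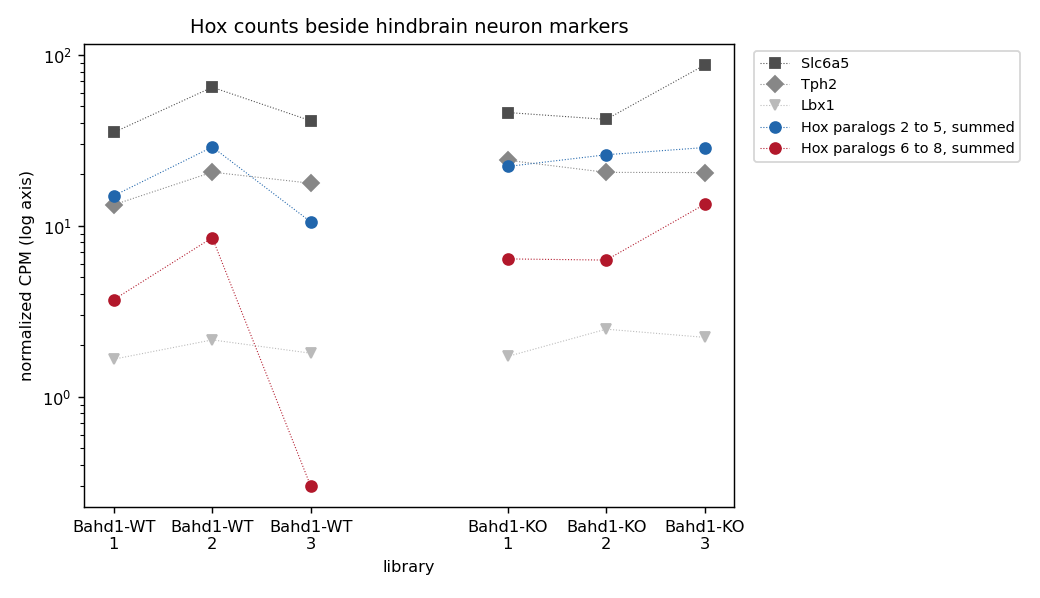
Normalized CPM (log axis) in each library of Hox paralogs 2 to 5 and 6 to 8, each summed, beside the hindbrain neuron genes Slc6a5, Tph2 and Lbx1; dotted lines only join the libraries of one genotype. In Bahd1-WT replicate 3 paralogs 6 to 8 were at 0.300 CPM, the lowest of the 6 libraries, while Slc6a5, Tph2 and Lbx1 stayed within the range of the others.

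The comparison of Bahd1-KO with Bahd1-WT asks whether loss of this repressor changed Hox RNA in the adult brain. No Hox gene passed the test: with edgeR's quasi-likelihood test and Benjamini-Hochberg adjustment over 23975 genes, 0 of 23 members had an adjusted p under 0.05 with a change of at least 2-fold, against 0.00834% of all genes (2 genes). At an unadjusted p under 0.05 there were 3 members, Hoxb6, Hoxa6 and Hoxc5, all higher in Bahd1-KO. Hoxa6 reached the filter of 10 counts only through Bahd1-KO, so its direction was set by the filter. Of all genes tested, 31.8% reached this level in either direction and 19.9% were higher in Bahd1-KO. The members' count depended on one library: without Bahd1-WT replicate 2 it was 12 of 23, all higher in Bahd1-KO, where 18.1% of all genes reached that level in either direction and 0 members were called. DESeq2 called 1 member, Hoxb6, where it called 10.5% of all genes.

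The fold changes nevertheless leaned upward in this fit. The median log2 fold change of the 23 members was 0.43 against -0.06 for all genes tested, and 21 of 23 were above 0 against 46.6% of all genes. The lean was larger without Bahd1-WT replicate 2, which had the highest Hox level of its group, and smaller without replicate 3, which had the lowest, and with a correction for GC content and length together. Without replicate 2 the median was 1.15 with 23 of 23 above 0 (46.8% of all genes), and with the replicate block it was 0.59 with 22 of 23 above 0 (46.5% of all genes). Without replicate 3 the median was 0.16 with 17 of 23 above 0 (47.3% of all genes). Exons of the 22 annotated members had a median GC content of 53.7%, against 48.7% over all genes tested. With a per-library offset for GC content and length the median was 0.11, with 12 members above 0 and 11 below (42.5% of all genes above 0). With the offset and without replicate 3, a fit added after the data were seen, the median was -0.12 and 9 members were above 0.

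**Figure D4:**
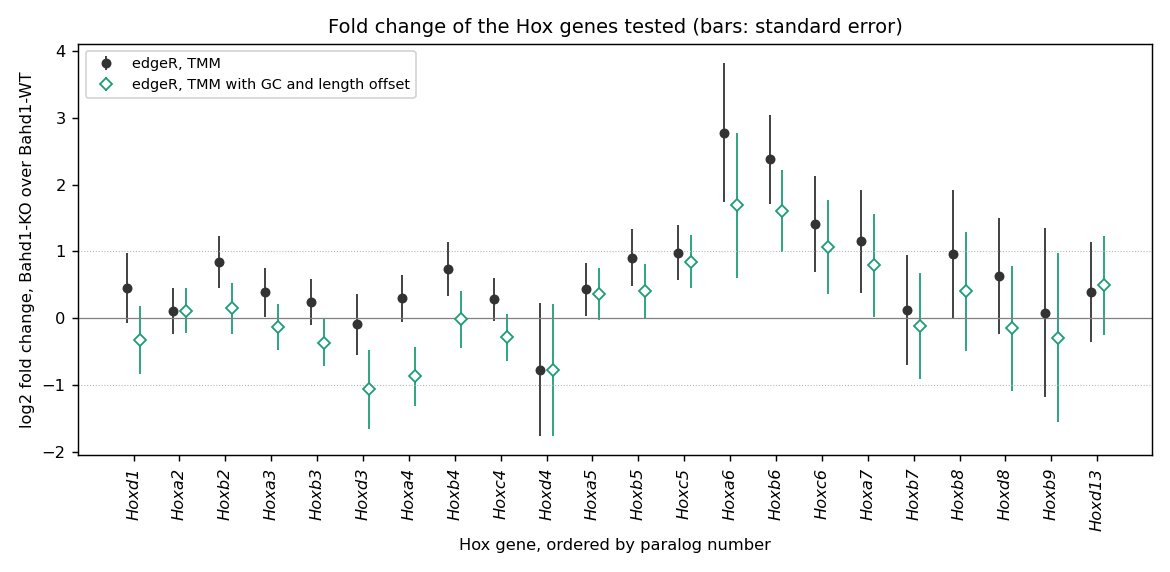
Log2 fold change of Bahd1-KO over Bahd1-WT for 22 of the 23 tested Hox genes, ordered by paralog number, from edgeR (filled circles) and from edgeR with the GC and length offset (open diamonds); bars are standard errors and dotted lines mark a 2-fold change. Hoxa6 and Hoxb6 lay above the 2-fold line at 2.78 and 2.38 and came down to 1.69 and 1.61 with the offset, where the anterior genes moved around or below 0.

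The anterior genes, paralogs 1 to 4, came to 8.35, 17.1 and 7.51 CPM in the Bahd1-WT libraries and 12.2, 14.3 and 14.6 CPM in Bahd1-KO. Bahd1-WT replicate 2 lay above all Bahd1-KO libraries and the other Bahd1-WT libraries below them, so the groups overlapped. The median log2 fold change of the 11 tested anterior genes was 0.30 (-0.77 to 0.85), with 9 above 0. Without Bahd1-WT replicate 2 it was 0.71 with 11 above 0, and without replicate 3 it was 0.10 with 8 above 0. With the GC and length offset it was -0.29 with 3 above 0, and with the offset and without replicate 3 it was -0.41 with 1 above 0.

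Among the rhombomere genes, Hoxd1 had 6, 13 and 15 counts in Bahd1-WT and 6, 28 and 11 in Bahd1-KO. It did not separate the genotypes, and in Bahd1-WT replicate 3 it was at 1.65 times the other Bahd1-WT libraries pooled, with a counting interval of 0.780 to 3.43. Hoxa2, the only Hox gene that reaches rhombomere 2, was at 0.514, 0.988 and 0.491 CPM in Bahd1-WT and 0.712, 0.588 and 0.846 CPM in Bahd1-KO. The Bahd1-KO values lay inside the Bahd1-WT range. Its paralog Hoxb2, a regulator of facial motor neurons, was at 0.525, 1.17 and 0.436 CPM against 1.03, 1.58 and 1.16 CPM, with the 3 Bahd1-KO values in the upper part and one Bahd1-WT library among them. Hoxb2 had a log2 fold change of 0.85 (SE 0.39, edgeR adjusted p = 0.175), and 0.15 with the offset.

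The paralog 3 genes, which pattern rhombomeres 5 and 6, varied within Bahd1-WT more than between genotypes. Hoxb3 was at 1.69, 3.85 and 1.80 CPM in Bahd1-WT and 2.44, 3.18 and 3.07 CPM in Bahd1-KO. Hoxa3 was at 0.809, 1.25 and 0.505 CPM against 0.781, 1.33 and 1.19 CPM. Hoxd3 was at 0.699, 1.62 and 0.436 CPM against 1.08, 0.683 and 0.829 CPM. Bahd1-WT replicate 2 was the highest library for Hoxb3 and Hoxd3, and the groups overlapped for all 3 genes. Hoxd3 and the Hoxd4 identifier at 0 share exons on one strand, with 2613 of the 4191 exon bases of Hoxd3 lying in Hoxd4 or Gm28230, so reads could be assigned differently there. Hoxb3 shares 2250 bases with Hoxb3os on the opposite strand, and counting used strand.

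The paralog 4 genes reach up to the border of rhombomeres 6 and 7. Hoxa4 was at 1.29, 2.77 and 1.12 CPM in Bahd1-WT and 1.9996, 2.27 and 2.06 CPM in Bahd1-KO. Hoxb4, an anterior marker of the caudal medulla, was at 0.634, 1.09 and 0.314 CPM against 1.01, 1.17 and 1.19 CPM. Hoxc4 was at 1.93, 3.90 and 1.88 CPM against 2.78, 2.89 and 3.70 CPM. In all 3 genes Bahd1-WT replicates 1 and 3 were below every Bahd1-KO library and replicate 2 was not. Hoxa4, with the highest GC content of the tested members (58.0%), moved from a log2 fold change of 0.30 to -0.87 with the offset (edgeR adjusted p = 0.576 and 0.290). The second Hoxd4 identifier (ENSMUSG00000115956) had 1 to 8 counts per library and no gene model in the annotation used here, so the offset took no GC content for it.

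The central genes, paralogs 5 to 8, came to 10.6, 20.7 and 3.83 CPM in Bahd1-WT and 16.8, 18.7 and 28.0 CPM in Bahd1-KO. All 10 tested genes had a log2 fold change above 0, with a median of 0.97 (0.12 to 2.78). Without Bahd1-WT replicate 2 the median was 1.98 with 10 above 0, and without replicate 3 it was 0.60 with 9 above 0. With the offset it was 0.60 with 8 above 0, and with the offset and without replicate 3 it was 0.16 with 7 above 0.

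Hoxa5 and Hoxb5 act in the caudal medulla, the phrenic motor column and the lung mesenchyme. Summed over all libraries, they had the most counts of this group. Hoxa5 was at 3.07, 5.31 and 1.61 CPM in Bahd1-WT and 4.21, 3.75 and 5.51 CPM in Bahd1-KO. Hoxb5 was at 2.86, 5.21 and 1.404 CPM against 4.64, 6.62 and 6.49 CPM. For both genes Bahd1-WT replicate 2 fell within the Bahd1-KO range. Hoxb5 had a log2 fold change of 0.91 (SE 0.42, edgeR adjusted p = 0.174), which was 1.47 without Bahd1-WT replicate 2, 0.55 without replicate 3 and 0.40 with the offset. Hoxc5 was at 0.973, 1.67 and 0.518 CPM against 1.54, 2.03 and 2.64 CPM, so again one Bahd1-WT library lay inside the Bahd1-KO range. Its log2 fold change was 0.98 (SE 0.41, unadjusted p = 0.0415 and adjusted p = 0.143 by edgeR), 1.47 without replicate 2 and 0.66 without replicate 3.

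Since Hoxa5 and Hoxb5 are also lung genes, they stand here beside 8 lung epithelium markers that summed to 117, 27.4 and 2.48 CPM in the Bahd1-WT libraries and to 0.575 to 1.44 CPM in Bahd1-KO. All 8 were lower in Bahd1-KO at an unadjusted p under 0.05, where 12% of all genes were lower. Of the 8, 0 were called by edgeR and 6 by DESeq2, which called 10.5% of all genes. For 6 of them (Sftpa1, Sftpb, Sftpd, Cxcl15, Lamp3 and Muc5b), with 0 to 6 counts over all Bahd1-KO libraries, the filter was reached only through Bahd1-WT, so no other direction could have been called. The most abundant were Scgb1a1 of club cells and Sftpc and Sftpa1 of alveolar type 2 cells, at 48.6, 25.8 and 20.8 CPM in Bahd1-WT replicate 1. The part of lung RNA in the Hoxa5 and Hoxb5 values was not tested.

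Hoxb6 was the member that differed most clearly between the genotypes. It had 25, 32 and 3 counts in Bahd1-WT and 32, 161 and 105 in Bahd1-KO, or 0.273, 0.518 and 0.0409 CPM against 0.735, 1.69 and 1.81 CPM. Every Bahd1-KO library lay above every Bahd1-WT library, which held for 1 of 23 members against 20.6% of all genes tested. The log2 fold change was 2.38 (SE 0.66, unadjusted p = 0.00625 and adjusted p = 0.0664 by edgeR). It was 1.86 (adjusted p = 0.173) without Bahd1-WT replicate 3, 3.12 (adjusted p = 0.243) without replicate 2 and 1.61 (adjusted p = 0.173) with the offset. DESeq2 with a normal prior called it at 1.92 (adjusted p = 0.00199), and lost that call with the offset, at 0.80 (adjusted p = 0.0597). Over all the alternatives run the adjusted p of Hoxb6 lay between 0.00199 and 0.270.

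Hoxb6 was also set against its neighbours within each library, a description chosen after its values were seen. It made up 7.37% (Wilson interval 5.04 to 10.7%) and 6.07% (4.33 to 8.45%) of the counts of paralogs 6 to 8 in Bahd1-WT replicates 1 and 2. In the Bahd1-KO libraries it made up 11.5% (8.24 to 15.7%), 26.8% (23.4 to 30.5%) and 13.5% (11.3 to 16.1%). In Bahd1-WT replicate 3 the share was 13.6% of only 22 counts, with an interval of 4.75 to 33.3% that covers all the others. The share in Bahd1-KO replicate 2 was the highest, and its interval lay above those of all other libraries except Bahd1-WT replicate 3.

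The other paralog 6 genes were weaker. Hoxa6 had 3, 0 and 0 counts in Bahd1-WT and 1, 10 and 9 in Bahd1-KO, with a log2 fold change of 2.78 (SE 1.05, adjusted p = 0.116 by edgeR). Bahd1-KO replicate 1 lay below Bahd1-WT replicate 1, and the filter was reached only through Bahd1-KO. Without Bahd1-KO replicate 1 edgeR called Hoxb6 (adjusted p = 0.0156) and Hoxa6, whose direction the filter had set, in a fit that called 16.7% of all genes. Hoxc6, known from brachial motor neurons, was at 0.251, 0.502 and 0.0273 CPM against 0.414, 0.536 and 1.09 CPM. Its groups overlapped, with a log2 fold change of 1.41 (SE 0.72, edgeR adjusted p = 0.206).

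For paralogs 7 and 8 the groups overlapped in every tested gene. Hoxb8, which is also active in blood progenitors, had 206, 290 and 4 counts in Bahd1-WT and 162, 281 and 403 in Bahd1-KO. That is 2.25, 4.70 and 0.0545 CPM against 3.72, 2.95 and 6.96 CPM. Bahd1-WT replicate 3 was 59.3 times lower than the other Bahd1-WT libraries pooled (ratio 0.0169, interval 0.00457 to 0.0434). Replicate 2 lay within the Bahd1-KO range and replicate 1 below it. The log2 fold change of 0.96 (SE 0.95, edgeR adjusted p = 0.499) was 0.39 without replicate 3 and 1.96 without replicate 2.

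Hoxb7 was at 0.503, 1.17 and 0.0273 CPM in Bahd1-WT and 0.621, 0.410 and 0.812 CPM in Bahd1-KO. Hoxa7 was at 0.219, 0.810 and 0.0682 CPM against 0.460, 0.473 and 1.45 CPM. Hoxd8 was at 0.175, 0.794 and 0.0818 CPM against 0.414, 0.147 and 1.05 CPM. In these 3 genes as in Hoxb8, Bahd1-WT replicate 3 was the lowest library and the remaining libraries of the genotypes overlapped. The log2 fold changes were 0.12 for Hoxb7, 1.15 for Hoxa7 and 0.63 for Hoxd8, without replicate 3 they were -0.44, 0.66 and 0.16, and without replicate 2 they were 1.15, 2.42 and 2.005.

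The clusters also hold microRNA genes, whose products are known to repress Hox messengers. The miR-10 pair lies beside the paralog 4 genes and the miR-196 family beside the paralog 9 genes. Their mature sequences from RefSeq are shown because one seed, bases 2 to 8 in capitals, is shared within each family.
mmu-miR-10a-5p: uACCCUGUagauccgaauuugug
mmu-miR-10b-5p: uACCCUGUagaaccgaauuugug
mmu-miR-196a-5p: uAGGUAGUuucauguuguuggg
mmu-miR-196b-5p: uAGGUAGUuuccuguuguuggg
The 5 genes for these microRNAs had 0 counts in the table, which comes from libraries that lost RNA shorter than 200 nucleotides, so their levels were not measured here. The complement of the miR-196 seed (ACTACCT) occurred in the transcripts of 11 of 39 Hox names (28.2%), among them Hoxa5, Hoxa7, Hoxb6, Hoxb7 and Hoxb8, and in 16.7% of protein-coding genes. The complement of the miR-10 seed (ACAGGGT) occurred in 7 of 39 (17.9%) and in 20.4% of protein-coding genes. Hoxb8 carries a near-complete miR-196a site at positions 2208 to 2229 of its transcript, where 21 of 22 bases form Watson-Crick pairs and 1, in lower case, a G:U pair.
Hoxb8 site: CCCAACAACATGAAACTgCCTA

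The proteins that act with Hox factors, and the enzymes that set or remove the Polycomb mark, had 0 genes called by edgeR in each list. Of 9 Hox cofactors of the Pbx, Meis and Pknox families, which bind DNA together with Hox proteins, 3 were higher in Bahd1-KO at an unadjusted p under 0.05 and 0 lower (3 and 1 with the offset). Meis2 and Pbx3, both among the most abundant, had log2 fold changes of -0.23 and 0.05, which were 0.18 and 0.63 with the offset. Meis3, named after its values were seen, had the largest value of the 9 cofactors without the offset, a log2 fold change of 1.84 (edgeR adjusted p = 0.0634) that was 0.53 with it. Of 13 tested retinoic acid genes, which carry the signal that opens the anterior Hox genes, 6 were higher and 0 lower, and with the offset 1 and 2. Of 16 PRC1 genes 9 were higher and 1 lower, which became 4 and 0 with the offset, and of 11 PRC2 genes 1 was higher and 3 lower, which became 2 and 2. The PRC2 core genes Ezh2 and Suz12 had log2 fold changes of -0.66 and -0.60 (-0.35 and -0.18 with the offset). Those of Eed and of Ezh1, which was more abundant than Ezh2, were -0.35 and 0.15 (-0.26 and -0.03 with the offset). DESeq2 called 1 cofactor, 4 retinoic acid genes, 3 PRC1 genes, 1 PRC2 gene and 1 Trithorax group gene, all higher. Over all genes tested it called 10.5%. Of 8 Trithorax and H3K27 demethylase genes 3 were higher and 2 lower, and 1 and 3 with the offset. These counts stand beside 31.8% of all genes at the same level in either direction, and 21.3% with the offset (9.89% higher and 11.4% lower in Bahd1-KO).

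Of 10 noncoding RNAs of the clusters, 3 (Hotair, Hottip and Hoxa11os) had 0 counts in every library. Of the 7 tested, Hotairm1 and Hoxb5os were higher in Bahd1-KO at an unadjusted p under 0.05, and 0 were lower. Hotairm1 had 1, 1 and 2 counts in Bahd1-WT and 3, 33 and 2 in Bahd1-KO, and Hoxb5os 0, 0 and 0 against 2, 10 and 2. Both reached the filter of 10 counts only through Bahd1-KO, so no other direction could have been called. Most counts of both lay in Bahd1-KO replicate 2. Of 17 genes that flank the clusters, 3 were higher and 1 lower at that unadjusted p (3 and 2 with the offset). Of all genes, 31.8% reached it in either direction (21.3% with the offset). The most abundant flanking gene, Cbx5, a heterochromatin protein, was the one that was lower, with a log2 fold change of -0.52 (edgeR adjusted p = 0.113) that was -0.10 with the offset. Of the noncoding RNAs 0 were called by either edgeR or DESeq2, and of the flanking genes 0 by edgeR and 1 by DESeq2. Over all genes tested the DESeq2 share was 10.5%.

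Regional and cell type markers were read as a measure of tissue content, again with 0 genes called by edgeR in any list. Of 13 hindbrain neuron markers 5 were higher in Bahd1-KO at an unadjusted p under 0.05 and 0 lower, and their summed level was 68.1, 110 and 80.7 CPM in Bahd1-WT against 97.3, 104 and 149 CPM. One of the 5, Tlx3, reached the filter only through Bahd1-KO, with 83 of its 87 Bahd1-KO counts in replicate 2. Bahd1-WT replicate 1 was lowest and Bahd1-KO replicate 3, which had the highest Hox level at 42.9 CPM, was highest. With the GC and length offset the count was 4 higher and 1 lower. Of 11 cerebellar markers 5 were higher and 0 lower (3 and 1 with the offset), with sums of 1223 to 1490 CPM over the 6 libraries. Of 11 forebrain transcription factors 1 was higher and 0 lower, which turned to 0 and 4 with the offset, where their median log2 fold change was -0.50 in place of -0.07. They summed to 286, 299 and 385 CPM against 357, 286 and 254 CPM, so Bahd1-WT replicate 3 was highest where it was lowest for Hox. The shares over all genes are 19.9% higher without and 9.89% higher with the offset. DESeq2 called 2 hindbrain, 2 cerebellar and 1 forebrain marker, all higher, where it called 10.5% of all genes. The part of hindbrain content in the Hox differences was not tested.

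The remaining lists stand beside the same shares of all genes, 19.9% higher and 12% lower (9.89% and 11.4% with the offset), and 10.5% called by DESeq2. Red blood cell markers (4 of 5 higher and 0 lower, 4 and 1 with the offset) summed to 92.6 CPM in Bahd1-KO replicate 2 and to 10.8 to 30.3 CPM elsewhere. Of 6 skeletal muscle markers 4 were higher and 0 lower (3 and 0 with the offset), and of 6 pituitary markers 1, Lhb, and 0 (0 and 0 with the offset). Ckm, among the 4, and Lhb had 2 and 9 counts in Bahd1-WT and reached the filter only through Bahd1-KO. The pituitary sum was 42.5 CPM in Bahd1-KO replicate 3 and 0.184 to 19.0 CPM elsewhere, and the muscle sum 10.9 CPM in Bahd1-KO replicate 2 and 1.54 to 4.68 CPM elsewhere. Of 8 fibroblast markers 0 were higher and 1 lower, which became 0 and 4 with the offset. Of 6 neuron markers 2 were higher and 1 lower, which turned to 1 and 2. Of 5 oligodendrocyte markers 2 were higher and 0 lower, which became 3 and 1, and of 5 astrocyte markers 2 and 1, which became 2 and 0. Of the 4 tested Schwann cell markers 1 was higher and 0 lower, which turned to 0 and 1. DESeq2 called 4 red blood cell, 3 muscle, 2 oligodendrocyte and 1 Schwann cell marker, all higher, and 0 of the fibroblast, pituitary, neuron and astrocyte markers. Their part in the Hox values was not tested.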

How the data were processed

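Counts per gene were deposited by the authors, one column for each of the 6 mice, in a table of 53801 genes with Ensembl identifiers. Per the labels and the study's methods, polyadenylated RNA was sequenced from stranded libraries, reads were trimmed with Cutadapt (1.11), aligned to GRCm38 with STAR (2.5.0a) and counted with featureCounts (1.4.6-p3), and 1 column stands for each mouse. The supplement also names a second aligner, so the aligner rests on the submitters' notes. Counting used strand, and in these files 96.4% of the counts lay in protein-coding genes and 0.160% in antisense genes.

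Genes with at least 10 counts over the 6 samples (23975) were tested with edgeR (4.0.16, R 4.3.3) by the quasi-likelihood test on the deposited counts, with TMM normalization and genotype as the only term. Calls required 2-fold or more together with a p-value below 0.05 after Benjamini-Hochberg adjustment over every gene tested. CPM and log2 fold changes were computed from these counts. DESeq2 (1.42.0), other scalings and filters, an offset for GC content and exon length (splines with 5 and 3 degrees of freedom, fitted per library on 13283 genes), a replicate block and leaving out each library were the alternatives. GC content, length, position and exon overlap came from GENCODE M21 on GRCm38, in which 1 of the 2 Hoxd4 identifiers had no entry.

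Members and lists were chosen with earlier results of these data known. Members with at least 100 counts in all were given per library, those with 10 or more but fewer by counts or range, and the rest by name. For other lists the counts and at most the 3 most abundant genes were to be named, and any other gene named, among them Ezh2, Suz12, Hotairm1, Hoxb5os and the silent noncoding RNAs, was chosen after its values were seen. Of the listed names, 3 were not analysed here. Wilson and exact intervals (95%) and the limit of 3 counts cover counting error only. The depth of 42297150 to 93557948 counts leaves members under 10 counts without a fold. The authors' comparison results were not used. Promoter and microRNA sequences were taken from RefSeq tables on GRCm38.p6, and the Hox protein sequences were not used here. A few genes of the lists, one of them a member, are not reported here by name.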

Additional observations from a re-analysis of the deposited data

How the results depend on the processing

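The genes called over the whole table ranged most: 2 with edgeR and TMM became 2007 with total counts alone, 2522 with DESeq2 and the normal prior, 2761 with DESeq2 without the prior and 2770 with no filter beyond 1 count. In each of these 4 fits 1 Hox gene, Hoxb6, was called, and 5, 6, 6 and 6 Hox genes in turn had an unadjusted p under 0.05, in place of 3, beside 29.7%, 29%, 29% and 25.2% of all genes in the same fits (31.8% with edgeR and TMM). With 1 CPM in 3 samples as the filter that count was 1 of 10 Hox genes tested, since Hoxb6 and Hoxa6 among others were left out. The share of all genes in that fit is not given here. The GC and length offset gave 4 genes called and 1 Hox gene with an unadjusted p under 0.05 (21.3% of all genes), and with DESeq2 and the normal prior 183 genes and 0 Hox genes called. Replicate numbers did not pair the samples (correlations of same-numbered deviations -0.22, -0.24 and -0.025); the replicate block gave 7 genes called, 0 Hox genes called and 5 Hox genes with an unadjusted p under 0.05 (21.8% of all genes), and the block with the offset gave 9 and 1. Leaving out each library in turn gave 0 to 3993 genes called, 0 to 2 Hox genes called and 1 to 12 Hox genes with an unadjusted p under 0.05. The 12 came without Bahd1-WT replicate 2, where 18.1% of all genes reached that level and 0 were called, and the 3993 without Bahd1-KO replicate 1. The offset without Bahd1-WT replicate 3, added after the data were seen, gave 10 genes called. The median log2 fold change of the Hox genes ranged from 0.16 to 1.15 on leaving out a library, and the other settings gave between -0.12 and 0.60. The cause of these shifts was not tested.

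Several Hox genes changed sign on the log2 scale, none of them with an adjusted p under 0.05 where one was given. With upper-quartile factors the values were -0.034 for Hoxa2, -0.021 for Hoxb7 and -0.054 for Hoxb9, and with the replicate block 0.084 for Hoxd3. With the GC and length offset they were -0.13 for Hoxa3, -0.87 for Hoxa4, -0.36 for Hoxb3, -0.017 for Hoxb4, -0.11 for Hoxb7, -0.29 for Hoxb9, -0.29 for Hoxc4, -0.33 for Hoxd1 and -0.15 for Hoxd8. With DESeq2, the normal prior and the offset they were -0.083 for Hoxa3, -0.58 for Hoxa4, -0.27 for Hoxb3, -0.0012 for Hoxb4, -0.019 for Hoxb7, -0.031 for Hoxb9, -0.20 for Hoxc4, -0.15 for Hoxd1 and -0.028 for Hoxd8. With the offset and the replicate block they were -0.067 for Hoxa3, -0.74 for Hoxa4, -0.24 for Hoxb3, -0.38 for Hoxb9, -0.21 for Hoxc4, -0.35 for Hoxd1 and -0.050 for Hoxd8. With the offset and without Bahd1-WT replicate 3 they were -0.080 for Hoxa2, -0.41 for Hoxa3, -1.13 for Hoxa4, -0.12 for Hoxb2, -0.56 for Hoxb3, -0.37 for Hoxb4, -0.69 for Hoxb7, -0.17 for Hoxb8, -0.74 for Hoxb9, -0.49 for Hoxc4, -0.10 for Hoxd1 and -0.64 for Hoxd8. On leaving out a library, Hoxa2 ranged from -0.063 to 0.50, Hoxb7 ranged from -0.44 to 1.15, Hoxb9 ranged from -1.31 to 1.74, Hoxd3 ranged from -0.43 to 0.59, Hoxd4 ranged from -1.32 to 0.37, Hoxd8 ranged from -0.37 to 2.005 and Hoxd13 ranged from -0.031 to 1.51. Members with few counts (Hoxa6, Hoxb9, Hoxd4 and Hoxd13) are limited by depth.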
